A study of Mus musculus with 19 samples.

Results

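Macrophages and the growth factor axis that maintains them were examined through 9 genes in primary mouse sarcomas. The genes were taken by symbol, with no threshold on their values, from the 48795 genes of the expression table, and earlier results of these data were known when they were chosen. They are the ligands Csf1 and Il34, their shared receptor Csf1r, and 6 genes carried by macrophages and other myeloid cells, namely Adgre1, Cd68, Cd14, Itgam, Mertk and Msr1. All 9 were among the 12826 genes with a mean value above 0 on the log2 scale, the level required for testing. Bulk RNA sequencing covered 19 tumors, 11 from Rag2-/- mice and 8 from Rag2+/- littermates. Both groups of mice received Adeno-sgp53-Cas9, an adenovirus that carries Cas9 and a guide against Trp53, in the gastrocnemius muscle, and then 300 µg of the carcinogen 3-methylcholanthrene (MCA). Mice were 6 to 10 weeks old at injection and of both sexes, and untreated tumors were taken at 70 to 150 mm3. Loss of Rag2 removes mature T and B cells and leaves macrophages and NK cells in place, so the genotypes compare myeloid RNA in tumors that grew without and with adaptive immunity.

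The receptor CSF1R is a tyrosine kinase of macrophages and their precursors, and its signal keeps most tissue macrophages alive and dividing. CSF1 is made by fibroblasts, endothelial cells and many tumor cells, while IL-34, an unrelated protein in sequence, binds the same receptor and is best known from skin and brain. In bulk tissue, Csf1r and the marker genes mostly report the macrophages, and the ligands mostly report the cells around them. Fewer macrophages and less RNA per macrophage cannot be told apart in these data.

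Each value is the log2 of upper-quartile normalized FPKM, a count of sequenced fragments scaled by transcript length and by library size, after 0.1 was added, so values of different genes are on a scale per length. The libraries held an estimated 24.8 to 33.8 M fragments on genes, except the Rag2-/- tumor S41, which held 5.19 M. The smallest estimate for a member in any tumor was 96 fragments. The genotype labels were reflected in the T cell genes, since the mean of a 10-gene T cell list ran from -2.31 to -1.11 in Rag2-/- tumors and from 0.24 to 2.47 in Rag2+/- tumors. Rag2 itself ran from -2.05 to 0.36 in Rag2-/- tumors and from -2.33 to -0.57 in Rag2+/- tumors, and since the sources used here do not give the deleted part of the allele, it does not check the labels. Macrophage RNA was present in every tumor, with the mean of an 18-gene pan-macrophage list at 5.55 to 7.75, beside 6.13 to 8.67 for the fibroblast and mesenchymal list and -2.67 to -0.88 for the keratinocyte list. In Rag2-/- and Rag2+/- tumors, list means ran from -2.74 to -2.06 and from -0.08 to 2.71 for B and plasma cells, from -0.45 to 1.57 and from -0.46 to 1.37 for dendritic cells, from -0.58 to 0.68 and from -1.20 to 1.23 for osteoclasts, from 0.53 to 3.0 and from 1.18 to 2.82 for microglia, and from 2.72 to 4.53 and from 3.27 to 4.31 for endothelial cells.

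Several tumors stood apart and bear on every result. The Rag2-/- tumor S46 had the highest pan-macrophage, tissue-resident macrophage and adipocyte list means of the 19, the last at 9.22 against 1.93 in the Rag2+/- tumor S56. S56 had the lowest pan-macrophage mean and the highest skeletal muscle mean, at 13.5. Muscle RNA varied widely, with a 12-gene list mean that ran from 4.70 to 12.6 where Rag2 was lost and from 6.90 to 13.5 in the Rag2+/- group. Its largest gap, from 10.4 to 12.3, set 5 muscle-rich tumors apart from the other 14, and 4 of those 5 were Rag2+/- and 1 was Rag2-/-. Results are therefore given also without S46 and S56 or within the 14 tumors with less muscle where these move them, both chosen after the values had been seen.

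Csf1 was the member that differed most between the genotypes, but its difference did not pass correction and moved with muscle RNA. Csf1 (ENSMUSG00000014599, chromosome 3, 107741048 to 107760469, minus strand, GRCm38) had a lowest, median and highest value of 4.96, 6.02 and 6.57 in Rag2-/- tumors and of 4.19, 5.41 and 6.02 in Rag2+/- tumors. The groups overlapped, with 6 of the 11 Rag2-/- tumors above every Rag2+/- tumor and 3 of the 8 Rag2+/- tumors below every Rag2-/- tumor. Means were 5.87 ± 0.48 (SD, n = 11) and 5.19 ± 0.73 (SD, n = 8), a log2 difference of 0.68 (SE 0.27, 95% interval 0.12 to 1.23) or 1.60-fold on this scale. The limma test gave an unadjusted p of 0.0192 and an adjusted p of 0.301 over all genes tested, and the two-sided exact permutation test gave an unadjusted p of 0.0259. The difference was 0.57 (SE 0.26, limma adjusted p = 0.574) without S46 and S56 and 0.48 (SE 0.22, limma adjusted p = 0.617) with Xist as a covariate. With the muscle list as a covariate it was 0.19 (SE 0.18). Within the 14 tumors with less muscle it was 0.16, with means of 5.96 ± 0.40 (SD, n = 10) and 5.80 ± 0.16 (SD, n = 4) and a two-sided exact permutation p of 0.468.

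Il34, the second ligand, was far lower than Csf1 in every tumor. Il34 (ENSMUSG00000031750, chromosome 8, 110741829 to 110805924, minus strand) ran from 1.85 through a median of 3.29 to 4.04 in Rag2-/- tumors and from 2.10 through 2.83 to 3.54 in Rag2+/- tumors. The ranges overlapped throughout, and 4 Rag2-/- tumors lay above the highest Rag2+/- tumor. The difference in means was 0.34 (SE 0.26, limma adjusted p = 0.443). It was 0.35 (SE 0.29) without S46 and S56, 0.12 (SE 0.27) with the muscle covariate, 0.18 (SE 0.24) with Xist as a covariate and 0.11 within the 14 tumors with less muscle. Csf1 exceeded Il34 in 19 of 19 tumors by a mean of 2.53 ± 0.50 (SD) on the log2 scale, which is 5.78-fold per length. This excess ranged from 1.41 in S56 to 3.55 in S48, and its group means of 2.67 and 2.34 differed with a two-sided exact permutation p of 0.158. Il34 shares 97 exonic bases with the antisense genes Gm15894 and Gm15895, and the library kit's strand is not stated, so a small part of its value could belong to them.

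Csf1r, the shared receptor, was one of the 2 most abundant members per length, and its genotype difference moved with single tumors and with muscle RNA. Csf1r (ENSMUSG00000024621, chromosome 18, 61100598 to 61132149, plus strand) had values of 5.62, 6.45 and 7.91 (lowest, median, highest) in Rag2-/- tumors and 4.52, 6.33 and 6.66 in Rag2+/- tumors. The highest value was that of S46 and the lowest that of S56, and apart from these 2 the receptor varied little, with 3 Rag2-/- tumors in all above the highest Rag2+/- tumor. The difference of 0.42 (SE 0.27, limma adjusted p = 0.388) became 0.06 (SE 0.16) without S46 and S56, 0.20 without S56 alone, 0.15 (SE 0.28) with the muscle covariate, 0.13 in the 15 tumors of the study's source data and 0.27 within the 14 tumors with less muscle. Csf1r shares 873 exonic bases with Hmgxb3 on the opposite strand.

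The marker Adgre1 encodes F4/80, the classical surface antigen of mouse macrophages, and it followed the receptor closely. Adgre1 (ENSMUSG00000004730, chromosome 17, 57358691 to 57483527, plus strand) ran from 5.35 through 5.88 to 7.59 in Rag2-/- tumors and from 3.96 through 5.73 to 6.19 in Rag2+/- tumors. As for Csf1r, S46 was highest and S56 lowest, and the difference of 0.43 (SE 0.29, limma adjusted p = 0.397) became 0.04 (SE 0.16) without them, 0.20 without S56 alone and 0.24 within the 14 tumors with less muscle. Cd68 encodes a lysosomal glycoprotein abundant in phagocytes. Cd68 (ENSMUSG00000018774, chromosome 11, 69664213 to 69666153, minus strand) ran from 6.00 through 6.46 to 8.78 in Rag2-/- tumors and from 6.00 through 6.88 to 7.29 in Rag2+/- tumors. Only S46 exceeded the highest Rag2+/- tumor, the difference was -0.02 (SE 0.30, 95% interval -0.65 to 0.61), without S46 and S56 it was -0.33 (SE 0.20), and within the 14 tumors with less muscle it was 0.06.

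Cd14 encodes the co-receptor that hands bacterial lipopolysaccharide to TLR4, and its spread among Rag2+/- tumors was the widest of any member. Cd14 (ENSMUSG00000051439, chromosome 18, 36725067 to 36726798, minus strand) ran from 4.62 through 5.91 to 6.26 in Rag2-/- tumors and from 3.23 through 6.10 to 6.89 in Rag2+/- tumors. No Rag2-/- tumor lay above the Rag2+/- range, whose SD was 1.20 against 0.55 in Rag2-/- tumors. The difference was 0.06 (SE 0.39, 95% interval -0.75 to 0.86), and it turned to -0.29 without S56, -0.06 without S58 and -0.01 without S52. Within the 14 tumors with less muscle it was -0.47 (two-sided exact permutation p = 0.249).

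Itgam, Mertk and Msr1 complete the markers. Itgam encodes CD11b, an integrin chain of macrophages, monocytes, neutrophils and NK cells. Itgam (ENSMUSG00000030786, chromosome 7, 128062640 to 128118491, plus strand) ran from 4.99 through 5.25 to 6.13 in Rag2-/- tumors and from 3.86 through 4.93 to 5.78 in Rag2+/- tumors. For Itgam 5 of the 8 Rag2+/- tumors were below every Rag2-/- tumor, and the difference was 0.42 (SE 0.22, limma unadjusted p = 0.0711, adjusted p = 0.325). It became 0.19 (SE 0.18) without S46 and S56, 0.27 without S56 alone, 0.12 (SE 0.18) in the 15 tumors of the study's source data and 0.35 within the 14 tumors with less muscle. Of lists of other cells that can carry CD11b, 3 also had a higher lowest and highest value in Rag2-/- tumors, at 4.31 to 5.46 against 3.50 to 5.24 for 8 monocyte genes, 0.44 to 4.0 against -0.64 to 2.61 for 10 neutrophil genes and 0.58 to 2.27 against -1.44 to 1.49 for 8 NK cell genes. These ends are single tumors. S56 was the lowest Rag2+/- tumor for the monocyte and NK cell lists, and S47 (4.0) and S53 (-0.64) were the ends for neutrophils. Of the 8 neutrophil genes tested, 0 were higher at an unadjusted limma p under 0.05, where 6.74% of genes tested were. Likewise 0 were lower, where 9.56% were. The means of the dendritic cell list (0.49 against 0.67) and of the microglia list (2.55 against 2.06) differed in opposite directions. The part of these cells in Itgam was not tested. Itgam shares 3450 exonic bases with the listed gene Gm49368 on the same strand, so its level is uncertain. Mertk encodes a receptor kinase for the uptake of dying cells. Mertk (ENSMUSG00000014361, chromosome 2, 128698956 to 128802894, plus strand) ran from 2.12 through 2.77 to 4.17 in Rag2-/- tumors and from 1.25 through 2.69 to 3.18 in Rag2+/- tumors, a difference of 0.32 (SE 0.24) that became 0.0053 (SE 0.14) without S46 and S56, 0.14 without S56 alone and -0.0034 within the 14 tumors with less muscle. Msr1 encodes the scavenger receptor SR-A. Msr1 (ENSMUSG00000025044, chromosome 8, 39581685 to 39642673, minus strand) ran from 3.69 through 4.52 to 5.49 in Rag2-/- tumors and from 3.01 through 4.57 to 4.99 in Rag2+/- tumors, a difference of 0.20 (SE 0.27). That of Msr1 was 0.0012 without S56 alone, -0.069 without S46 and S56 and -0.18 within the 14 tumors with less muscle. S56 was lowest for both, and S51, a muscle-rich Rag2-/- tumor, was highest for Msr1.

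**Figure D1:**
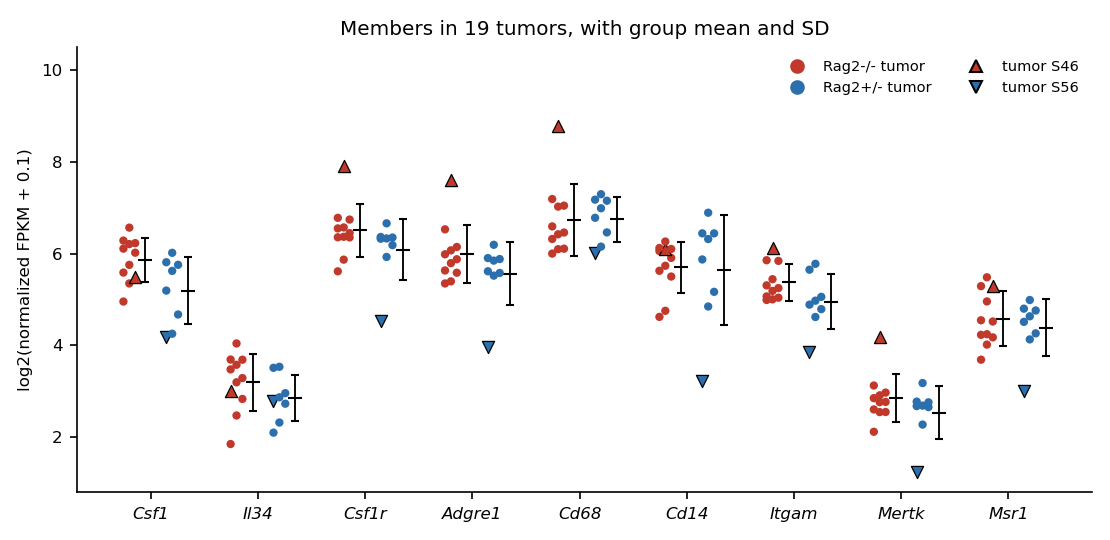
Each point is 1 tumor, the y axis is log2(normalized FPKM + 0.1), and horizontal bars with whiskers give the group mean and SD for 11 Rag2-/- and 8 Rag2+/- tumors. S46 (triangle up) is highest for Csf1r, Adgre1, Cd68, Itgam and Mertk, and S56 (triangle down) is lowest for Csf1, Csf1r, Adgre1, Cd14, Itgam, Mertk and Msr1.

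By the adjusted limma test, 0 of the 9 members were called, where 0.0312% of the 12826 genes tested were (4 genes, Cd2, Igha, Igkc and Tnfrsf18, each lower in Rag2-/- tumors). At an unadjusted limma p under 0.05, 1 of the 9 members was higher in Rag2-/- tumors, namely Csf1, where 6.74% of genes tested were higher, and 0 of 9 were lower, where 9.56% were. The unadjusted limma p of Csf1 was 0.0506 without S56, 0.0505 without S59 and 0.298 with the muscle covariate. The exact permutation test on the same genes, adjusted in the same way, called 0 members and 0 genes, and at an unadjusted p under 0.05 it kept 1917 genes. Its smallest possible p is 1.32e-05, at which 1 gene alone could not pass over 12826 genes, so this test had little room to call any. The median difference over the members was 0.34, beside 0.06 over all genes tested, and over the members it was 0.04 without S46 and S56. In the 15 tumors of the study's source data the differences were 0.65 (SE 0.26) for Csf1, 0.46 for Il34, 0.13 for Csf1r, 0.058 for Adgre1, -0.38 for Cd68, -0.46 for Cd14, 0.12 for Itgam, -0.069 for Mertk and -0.24 for Msr1. With the muscle covariate, beside the values of the ligands above, they were 0.15 (SE 0.28) for Csf1r, 0.25 for Adgre1, 0.095 for Cd68, -0.071 for Cd14, 0.38 for Itgam, 0.20 for Mertk and 0.13 for Msr1. The 95% intervals of the members spanned -0.75 to 1.23 on the log2 scale, so differences up to those sizes remained possible.

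**Figure D2:**
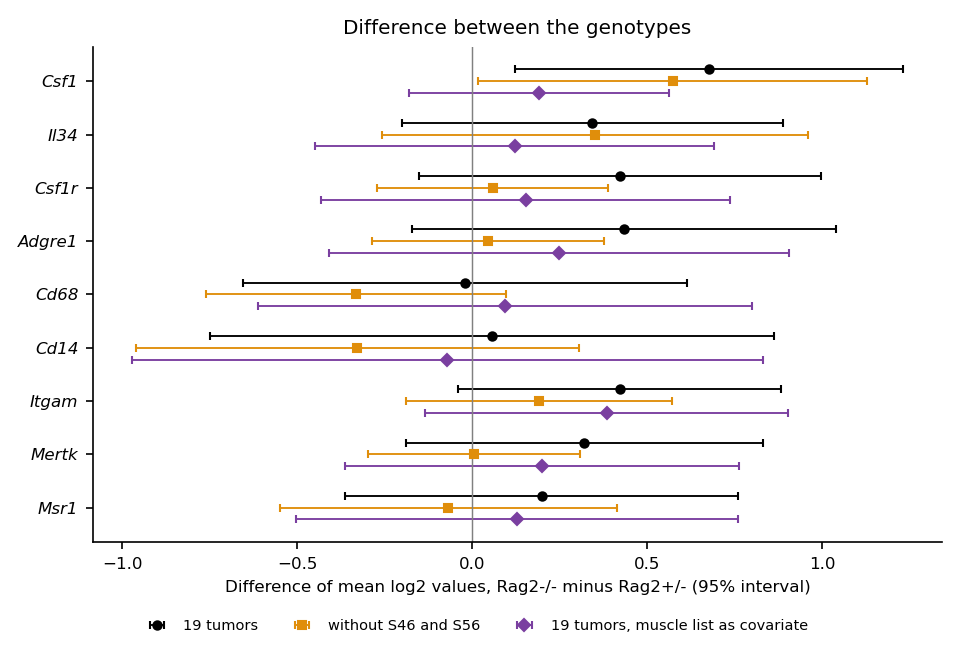
The x axis gives the difference of mean log2 values, Rag2-/- minus Rag2+/-, with 95% intervals from limma, for each member in 19 tumors (black), without S46 and S56 (orange) and with muscle list means added to the model (purple). Csf1 falls from 0.68 to 0.19 with the muscle covariate, and Csf1r, Adgre1 and Mertk lie near 0 without S46 and S56.

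In order of mean level per length, the members ran Cd68 (6.74), Csf1r (6.33), Adgre1 (5.81), Cd14 (5.68), Csf1 (5.58), Itgam (5.20), Msr1 (4.50), Il34 (3.05) and Mertk (2.72). Csf1r exceeded Adgre1 in 19 of 19 tumors, Msr1 exceeded Il34 in 19 of 19, and Itgam exceeded Msr1 in 18 of 19. Other neighbours were not separated in this way. Cd68 was above Csf1r in 12 of 19 tumors, Adgre1 above Cd14 in 9, Cd14 above Csf1 in 9, Csf1 above Itgam in 13 and Il34 above Mertk in 15. The fold between the highest and the lowest tumor was smallest for Il34 (4.67-fold in normalized FPKM) and largest for Cd14 (12.8-fold) and Adgre1 (12.5-fold).

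Measured against the receptor within each tumor, the other 8 members showed no detectable shift with genotype. The log2 ratio to Csf1r differed most for Cd68, with a mean of 0.22 ± 0.57 (SD, n = 11) for Rag2-/- and of 0.67 ± 0.53 (SD, n = 8) for Rag2+/-. That difference of -0.44 had a two-sided exact permutation p of 0.104 and an adjusted p of 0.830 over the 8 ratios. The ratio of Csf1 to its receptor was -0.64 ± 0.71 (SD, n = 11) and -0.89 ± 0.67 (SD, n = 8), with a two-sided exact permutation p of 0.442. Their difference of 0.25 was 0.086 without S59 and 0.43 without S46. The remaining differences ran from -0.37 for Cd14 to 0.01 for Adgre1, and the adjusted p of the 8 ran from 0.830 to 0.998 (two-sided exact permutation test). The tightest ratio was that of Adgre1, with an SD of 0.26 over the 19 tumors, and the loosest that of Cd14, with an SD of 0.81.

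Across the 19 tumors the receptor and the markers varied together, and pairs of a ligand with one of them mostly did not pass the test. Of the 21 pairs among Csf1r and the 6 markers, 18 had an adjusted p under 0.05 (Pearson r, 2-sided permutation test, adjusted over 36 pairs), with a median r of 0.69. By Spearman's rho 10 of the 21 passed. Of the 14 pairs of a ligand with the receptor or a marker, 0 passed by Pearson's r, with a median r of 0.23, and 1 passed by Spearman's rho (Csf1r with Il34, rho = 0.58, adjusted p = 0.0301). These counts changed without S46 and S56. With both left out the median r of the 21 pairs fell to 0.43, and of all 36 pairs only Csf1 with Il34 still passed.

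Csf1r and Adgre1 gave the highest r, at 0.92 (permutation p = 3e-05, adjusted p = 6.3e-04) with rho = 0.64 (permutation p = 0.00416, adjusted p = 0.025). Within genotypes r was 0.86 in Rag2-/- and 0.98 in Rag2+/- tumors, and without S46 and S56, also the 2 most distant from the median Csf1r value, it was 0.61. Csf1r with Mertk gave r = 0.84 (permutation p = 0.00115, adjusted p = 0.00375) and rho = 0.59 (permutation p = 0.00877, adjusted p = 0.0301), but r = 0.23 without S46 and S56. Csf1r with Cd68 gave r = 0.60 (permutation p = 0.0211, adjusted p = 0.0422) and rho = 0.22 (permutation p = 0.355, adjusted p = 0.469), and r = 0.0013 without S46 and S56. Other settings left both pairs with higher r. Without S46 alone Csf1r with Cd68 gave r = 0.28, and without S56 alone Csf1r with Mertk gave r = 0.71. With the muscle trend removed r was 0.81 for Cd68 and 0.83 for Mertk. Within the 13 tumors with less muscle other than S46 it was 0.37 and 0.45, and in the 15 tumors of the study's source data 0.21 and 0.40. Csf1r with Csf1, the receptor with its main ligand, gave r = 0.46 (permutation p = 0.0513, adjusted p = 0.0879) and rho = 0.50 (permutation p = 0.0282, adjusted p = 0.0676), r = 0.13 within Rag2-/- and 0.54 within Rag2+/- tumors, and r = 0.38 without S46 and S56. This call depended on the setting, since r was 0.60 without S46 alone (adjusted p = 0.0198) and 0.62 after quantile normalization (adjusted p = 0.00896), both of which pass, but 0.18 without S56 alone and 0.011 with the muscle trend removed. Csf1r with Il34 gave r = 0.32 (permutation p = 0.18, adjusted p = 0.249), and r = 0.57 without S46 and S56, which did not pass.

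**Figure D3:**
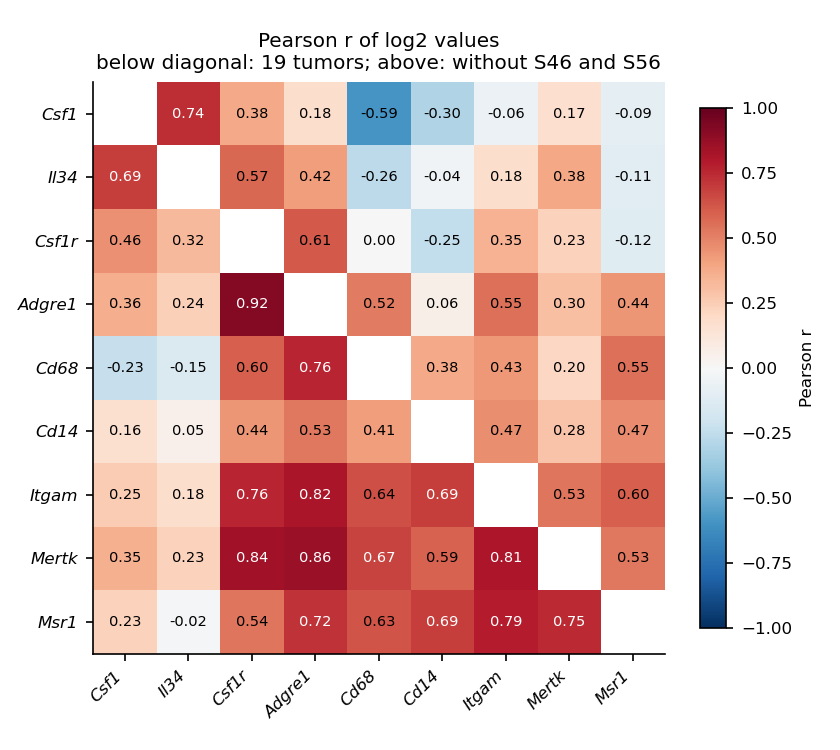
Each cell gives Pearson r of the log2 values of 2 members, over 19 tumors below the diagonal and and without S46 and S56 above it. The block of high r among Csf1r and the 6 markers below the diagonal, up to 0.92, is paler above it, where Csf1 with Il34 keeps r = 0.74.

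The ligands Csf1 and Il34 varied together, with r = 0.69 (permutation p = 0.00113, adjusted p = 0.00375) and rho = 0.68 (permutation p = 0.00197, adjusted p = 0.0188). Their r was 0.68 within Rag2-/- tumors, 0.71 within Rag2+/- tumors, 0.74 without S46 and S56 and 0.68 once the 2 tumors most distant from the median Csf1 value were dropped. Within the 14 tumors with less muscle it was 0.32 (permutation p = 0.259, adjusted p = 0.462), a set that leaves out the 5 muscle-rich tumors, where Csf1 was lowest and Il34 ran from 1.85 to 2.78. With the muscle trend removed from all 19 tumors r was 0.65, which passed, and in the 15 tumors of the study's source data it was 0.70 but no longer passed (adjusted p = 0.104). Among those 14 tumors 14 of the 36 pairs passed, all of them among Csf1r and the markers, and S46 is one of the 14.

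Muscle RNA moved with Csf1 more than with any other member. Over 19 tumors Csf1 fell as the muscle list mean rose, with r = -0.86 (permutation p = 1e-05, the smallest that 100000 permutations can give, adjusted p = 9e-05 over 9 members) and rho = -0.80 (permutation p = 1e-04, adjusted p = 9e-04). It held within genotypes, at -0.71 in Rag2-/- and -0.92 in Rag2+/- tumors, and at -0.88 once the 2 tumors most distant from the median muscle mean were dropped. Within the 14 tumors with less muscle r was -0.55 (permutation p = 0.0421, adjusted p = 0.379) and rho was -0.50 (permutation p = 0.0715). For Csf1r, r with the muscle list was -0.52 (permutation p = 0.0193, adjusted p = 0.0868) and rho was -0.60 (permutation p = 0.00781, adjusted p = 0.0351), and for Il34 r was -0.46 (permutation p = 0.0468, adjusted p = 0.141) and rho was -0.41 (permutation p = 0.0868, adjusted p = 0.261). The other 6 members had r from -0.39 for Adgre1 to 0.16 for Cd68, with adjusted p of 0.219 or more. For Cd68 r rose to 0.65 without S46 and S56 (adjusted p = 0.0239), where it passed, and it was 0.62 in the 15 tumors of the study's source data. Of the 12 muscle genes, 9 were lower in Rag2-/- tumors at an unadjusted limma p under 0.05, where 9.56% of genes tested were, and 0 after adjustment, and the part of muscle in the Csf1 difference by genotype was not tested beyond the covariate and the 14 tumors above.

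**Figure D4:**
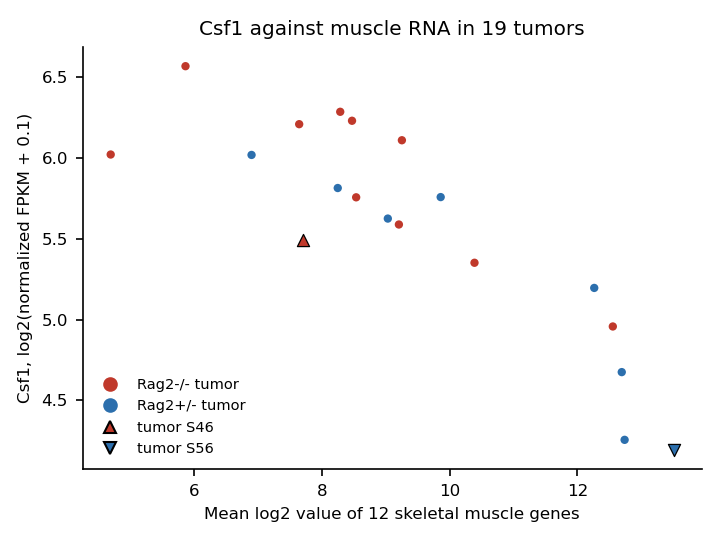
Each point is 1 of 19 tumors, with the mean log2 value of 12 skeletal muscle genes on the x axis and the Csf1 log2 value on the y axis. Csf1 is lowest, at 4.19, in S56, the tumor with the highest muscle mean, and the 5 tumors right of the gap between 10.4 and 12.3 are the 5 lowest for Csf1.

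Each member was then set against the pan-macrophage list and a 10-gene fibroblast and mesenchymal list, a comparison added after the values had been seen. Of 18 correlations 10 had an adjusted p under 0.05. Adgre1 followed the pan-macrophage list most closely, with r = 0.95 (permutation p = 1e-05, adjusted p = 9e-05) and rho = 0.86 (permutation p = 3e-05, adjusted p = 5.4e-04). Cd68 followed it with r = 0.84 (permutation p = 1e-05, adjusted p = 9e-05) and rho = 0.81 (permutation p = 6e-05, adjusted p = 5.4e-04). Both held without S46 and S56, at 0.85 and 0.76, and within the 14 tumors with less muscle, at 0.95 and 0.93. Csf1r with the pan-macrophage list gave r = 0.84 (permutation p = 3.3e-04, adjusted p = 8.49e-04) and rho = 0.57 (permutation p = 0.0114, adjusted p = 0.0242), but 0.41 without S46 and S56. Cd14 was the marker least tied to the list, with r = 0.55 (permutation p = 0.023, adjusted p = 0.0461), rho = 0.34 (permutation p = 0.16, adjusted p = 0.287) and r = 0.19 without S46 and S56.

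The ligands Csf1 and Il34 were not detectably related to the pan-macrophage list, with r = 0.20 (permutation p = 0.416, adjusted p = 0.505) and 0.15 (permutation p = 0.544, adjusted p = 0.577) and rho = 0.065 (permutation p = 0.794) and 0.30 (permutation p = 0.214). With the fibroblast list Csf1 gave r = 0.78 (permutation p = 2.7e-04, adjusted p = 8.1e-04) and rho = 0.64 (permutation p = 0.00358, adjusted p = 0.0107), and Il34 gave r = 0.75 (permutation p = 2.4e-04, adjusted p = 8.1e-04) and rho = 0.68 (permutation p = 0.00176, adjusted p = 0.00634). Without S46 and S56 these were 0.71 and 0.79, and with S51 and S56, the 2 tumors most distant from the median fibroblast mean, dropped they were 0.73 and 0.70. Within the 14 tumors with less muscle they were 0.05 (permutation p = 0.868) and 0.29 (permutation p = 0.326), and -0.16 and 0.23 in the 13 of them other than S46. In the 15 tumors of the study's source data they were 0.74 and 0.72. Csf1r was the third member to pass with the fibroblast list, at r = 0.52 (permutation p = 0.027, adjusted p = 0.0487) and rho = 0.57 (permutation p = 0.0121, adjusted p = 0.0242). Its r was 0.63 without S46 and S56, above the 0.41 of Csf1r with the pan-macrophage list in those tumors. It was 0.060 without S51 and S56, 0.39 in the 15 tumors and -0.22 within the 14 tumors with less muscle. The last value rested on S46, since r was 0.44 in the 13 of those tumors other than S46. The call was lost in 15 of the 19 sets that leave out 1 tumor.

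**Figure D5:**
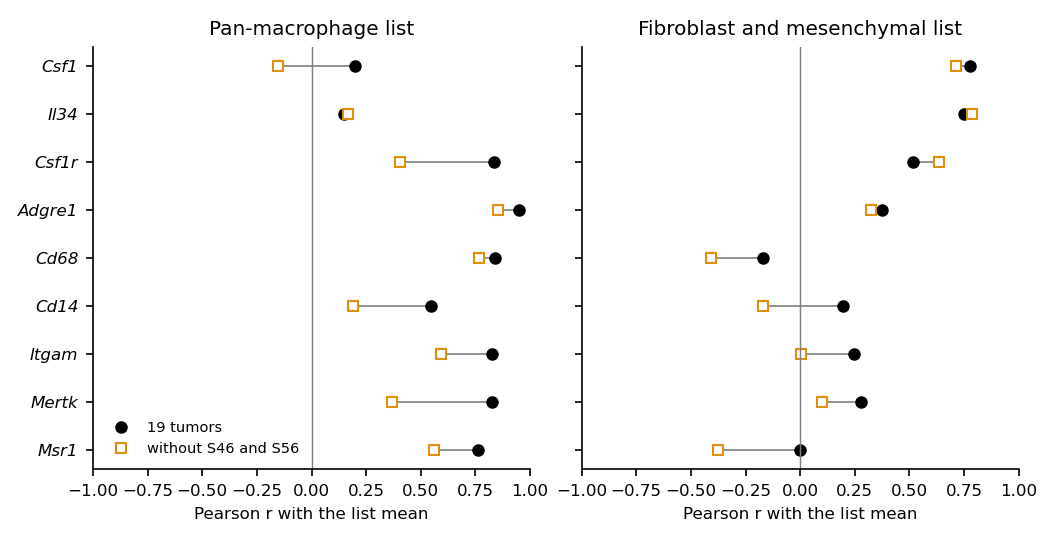
The x axis gives Pearson r of each member with the mean of the pan-macrophage list (left) and of the fibroblast and mesenchymal list (right), over 19 tumors (filled circles) and without S46 and S56 (open squares). Adgre1 (0.95 and 0.85) and Cd68 (0.84 and 0.76) keep a high r on the left, and Csf1 (0.78 and 0.71) and Il34 (0.75 and 0.79) on the right, while Csf1r goes from 0.84 to 0.41 on the left and from 0.52 to 0.63 on the right.

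Other genes of the CSF1R pathway were described by counts. Of 19 further ligands, receptors and signalling genes, 18 were tested, 0 were called in either direction and 15 lay above 0, beside 7209 of all 12826 genes tested. Their median difference was 0.22 beside 0.06 over all genes tested, and over the 19 genes it fell from 0.24 to 0.061 without S46 and S56, beside 0.04 over all genes tested. At an unadjusted limma p under 0.05, 1 of the 18 was higher, where 6.74% of genes tested were, namely Pik3ap1, an adaptor of PI3-kinase (difference 0.60), named here after its values were seen. Spi1, which encodes the myeloid transcription factor PU.1, had a mean of 5.40 ± 0.56 (SD, n = 11) for Rag2-/- and of 5.11 ± 0.56 (SD, n = 8) for Rag2+/-. Tyrobp, the DAP12 adaptor, was at 7.54 ± 0.56 (SD, n = 11) and 7.18 ± 0.56 (SD, n = 8). Ptprz1, another receptor of IL-34, fell below the level tested, with group means of -1.53 and -2.29.

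Of 17 other myeloid growth factors and receptors 14 were tested, 0 were called and 5 were higher at an unadjusted limma p under 0.05, where 6.74% of genes tested were, with a median difference of 0.31 (over all 17 genes 0.25, and 0.17 without S46 and S56). The 5, named after their values were seen, were the monocyte chemokines Ccl2 (difference 0.79) and Ccl7 (0.71), the dendritic cell growth factor Flt3l (0.66), the stem cell factor Kitl (0.48) and the receptor chain Il3ra (0.36). The growth factor Csf2 had a median at -3.32, the lowest value possible, in both groups, and 12 of 19 tumors were at that value. Of 23 partners and relatives of the member receptors 20 were tested and 0 were called, with a median difference of 0.0080 (over all 23 genes -0.081, and -0.21 without S46 and S56). At an unadjusted limma p under 0.05, 1 of the 20 was lower, where 9.56% of genes tested were, namely Adgre5 (difference -0.68, p = 0.0123), which encodes CD97, a relative of F4/80, and 1 was higher, where 6.74% were, namely Lamp2 (0.39, p = 0.0167), which encodes a lysosomal membrane protein related to CD68, both named after their values were seen. The integrin chain Itgb2, which pairs with CD11b, was at 5.62 ± 0.75 (SD, n = 11) and 5.83 ± 0.77 (SD, n = 8), against the higher Rag2-/- mean of Itgam itself. The MERTK ligands Gas6 and Pros1 differed by -0.25 and 0.24, and the CD14 partners Tlr4 and Ly96 by 0.25 and 0.29, with unadjusted limma p from 0.261 for Pros1 to 0.552 for Gas6.

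Promoter sequence from RefSeq (GRCm38.p6) is shown for 4 of the 9 members. It sets the ligand Csf1 beside 3 of the markers that varied with one another over the 19 tumors (Cd68, Itgam and Mertk). No window is shown for the other members, the receptor among them, so the 4 do not describe the whole set. Each line gives the 250 bases before the annotated start, 5′ to 3′ on the gene's strand, with capitals marking GAGGAA or its reverse complement TTCCTC, a core that PU.1 can bind. The windows are chr3:107760470-107760719 for Csf1, chr11:69666171-69666420 for Cd68, chr7:128062390-128062639 for Itgam and chr2:128698665-128698914 for Mertk, minus strand for the first 2 and plus strand for the others.
Csf1: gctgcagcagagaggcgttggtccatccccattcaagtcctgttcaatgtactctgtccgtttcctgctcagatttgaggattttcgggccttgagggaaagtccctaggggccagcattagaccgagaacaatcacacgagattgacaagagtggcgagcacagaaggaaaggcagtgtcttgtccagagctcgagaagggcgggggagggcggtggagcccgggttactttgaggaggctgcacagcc
Cd68: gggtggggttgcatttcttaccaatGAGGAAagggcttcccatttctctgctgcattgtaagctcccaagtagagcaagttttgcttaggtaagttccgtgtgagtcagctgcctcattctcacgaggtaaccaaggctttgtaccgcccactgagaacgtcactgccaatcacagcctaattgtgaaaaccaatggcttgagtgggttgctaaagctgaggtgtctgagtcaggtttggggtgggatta
Itgam: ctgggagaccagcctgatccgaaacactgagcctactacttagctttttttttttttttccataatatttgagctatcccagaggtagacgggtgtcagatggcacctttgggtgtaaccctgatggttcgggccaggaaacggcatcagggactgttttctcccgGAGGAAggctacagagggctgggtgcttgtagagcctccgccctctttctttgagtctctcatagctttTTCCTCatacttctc
Mertk: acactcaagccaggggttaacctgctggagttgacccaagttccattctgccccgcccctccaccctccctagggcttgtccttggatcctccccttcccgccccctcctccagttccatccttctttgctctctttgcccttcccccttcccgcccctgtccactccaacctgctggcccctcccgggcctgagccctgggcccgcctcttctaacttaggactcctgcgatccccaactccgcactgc
Cd68 held 1 match, 220 bases before the start, and Itgam held 2, at 79 bases on the gene's strand and at 10 bases on the opposite strand. Csf1 and Mertk held 0. Of all 32851 windows of the same length, 23.3% held a match on either strand, so the letters are common. The matches are a description, and binding was not tested.

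Over all 12826 genes tested and 19 tumors, the genes whose pattern was most like Csf1r by Pearson r were Kctd12 (0.96), Man2b1 (0.96), Nckap1l (0.95), Gm26778 (0.95) and Stk4 (0.94). Without S46 and S56 their r with Csf1r lay between 0.72 and 0.90, and Man2b1, a lysosomal mannosidase, had 0.90. Among the members Adgre1 was the closest to Csf1r, 10th of all genes. Those most like Csf1 were S1pr2, Prelid1, Pak3, Psat1 and Jpt2, with r of 0.94 to 0.95, and without S46 and S56 these 5 kept 0.93 to 0.94. Those most like Il34 were Serpinf1, Bicc1, Lsm11, Slc35b3 and Ccdc8, with r of 0.83 to 0.85. Csf1 was 482nd in the order for Il34, and Csf1r was 4770th in the order for Csf1. These likenesses describe the same 19 libraries and share their muscle content.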

How the data were processed

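RNA of 19 primary p53/MCA tumors, 11 Rag2-/- and 8 Rag2+/-, was sequenced in paired ends after NEBNext Ultra II library preparation. The deposited values are log2 values of upper-quartile normalized FPKM made by the authors. For values of this kind the study's methods name alignment to the mouse B38 genome in Omicsoft Array Studio and Ensembl gene models. All 19 libraries share a lowest value equal to the log2 of 0.1, the amount added before the log. The study's methods give this pipeline for expression of neoantigens. The submitters' processing notes name Trimmomatic 0.36, STAR and HTSeq, which do not give FPKM. Which pipeline made the deposited values is therefore not settled. No count test was run, since the unit is a normalized level. Each column matched 1 tumor by its label, and 0 columns were left unmatched. Of 48795 gene IDs, 48349 had a symbol and a gene model in GENCODE vM21 (GRCm38), which gave locations. Depth was estimated from low values of 28162 genes with 1 transcript, as whole multiples of 1 fragment to within 0.05, which holds for most but not all values.

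The genotypes were compared gene by gene, where the mean over tumors exceeded 0 on the log2 scale, in limma 3.58.1 (R 4.3.3) with a variance trend, a Benjamini-Hochberg threshold of 0.05 over all genes tested, and by two-sided exact permutation over 75582 relabelings. limma was tested on simulated data before use. Correlations used 100000 permutations (Python 3.11.15, numpy 2.4.6, pandas 2.3.3, scipy 1.17.1) and were adjusted within each family. The labels call each library a separate tumor and pair none across genotypes, so groups were compared unpaired, and p-values measure the spread between tumors. Alternatives were the 15 tumors of the study's source data, each tumor left out, other pseudocounts, filters, normalizations and variance models, and the muscle list or Xist as covariates. Genes named are the 9 members, partners of a member, list genes that passed the adjusted test (none did among the 3 pathway lists), and the 5 genes most like each of Csf1r, Csf1 and Il34 by Pearson r. The 18 lists (185 genes) cover the pathway and the cell types given in the results. Outside this rule, list genes with an unadjusted p under 0.05, and Csf2, were named after their values were seen. Members and lists were chosen with earlier results of these data known. Exome data were not used here.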

Additional observations from a re-analysis of the deposited data

Results flagged for a closer look

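Among the 8 Rag2+/- tumors, S56 was far below the others for 4 members. It was at 4.52 for Csf1r, where the next tumor was at 5.93, at 3.96 for Adgre1 (next 5.52), at 1.25 for Mertk (next 2.28) and at 3.01 for Msr1 (next 4.13), on the log2 scale. In each case the gap exceeded Dixon's 95% critical value for 8 samples, as a share of the group's range. The log2 ratio of Adgre1 to Csf1r was lowest in S53, at -0.84 (next -0.57). In all 17 values were examined and 5 met the criterion, where chance gives about 1 in 20, and the 4 values of S56 come from 1 library. The 11 Rag2-/- tumors were not examined in this way, since the criterion covers groups of up to 10. S56 also had the highest muscle list mean of the 19 tumors, at 13.5, and its part in these low values was not tested.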

How the results depend on the processing

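The count of 0 members called by genotype and the count of 0 ratios to Csf1r that passed held under every alternative run. The 4 genes called became 15 in the 15 tumors of the study's source data, 26 with no filter on low values, 0 with a mean log2 value above 2, 2 with the muscle list as a covariate and 9 without S46 and S56, and with each tumor left out in turn 3 to 7, the highest without S51 and without S56. The 19 of 36 member pairs that passed became 0 in the 15 tumors and 1 without S46 and S56, and 14 to 20 with each tumor left out. The 1 of 9 correlations with the muscle list that passed became 2 without S46 and S56 (Cd68 joined Csf1, at r = 0.65) and ran from 1 to 4 with each tumor left out, the highest without S48 (Csf1r, Il34 and Mertk joined Csf1). The 10 of 18 correlations with the pan-macrophage and fibroblast lists became 4 in the 15 tumors and 6 without S46 and S56, and 8 to 11 with each tumor left out.

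Signs turned for results that had not passed a test and for Csf1r with Msr1. They also turned for passed correlations with the fibroblast list among the tumors with less muscle. That of Csf1r was -0.22 in the 14 tumors, and that of Csf1 was -0.16 in the 13 other than S46. Of the genotype differences, Cd68 was 0.15 after quantile normalization, 0.095 with the muscle covariate and 0.087 with Xist, and -0.23 to 0.057 with each tumor left out. Cd14 was -0.46 in the 15 tumors, -0.071 with muscle, -0.12 with Xist, -0.33 without S46 and S56 and -0.29 to 0.23 with each tumor left out. In the 15 tumors Mertk was -0.069 and Msr1 -0.24, and without S46 and S56 Msr1 was -0.069. Of the ratios to Csf1r, Il34 was 0.33 in the 15 tumors, 0.29 without S46 and S56, 0.11 against the pan-macrophage list and -0.22 to 0.13 with each tumor left out. Adgre1 was -0.069 in the 15 tumors, -0.014 without S46 and S56, -0.011 after quantile normalization and -0.036 to 0.070 with each tumor left out. Itgam was 9.54e-05 with a pseudocount of 0.01, 0.13 without S46 and S56, 0.18 with the muscle trend removed, 0.18 against the pan-macrophage list and -0.086 to 0.082 with each tumor left out. Mertk was 0.036 with the muscle trend removed and 0.083 against the pan-macrophage list. Without S46 and S56, r of Csf1r was -0.25 with Cd14 and -0.12 with Msr1 (0.54 over the 19 tumors), and with Cd14 it was -0.20 in the 15 tumors and -0.069 to 0.51 with each tumor left out. With the muscle list, r in the 15 tumors was 0.0059 for Adgre1, 0.21 for Cd14, 0.17 for Itgam, 0.050 for Mertk and 0.012 for Msr1. Without S46 and S56 it was 0.23 for Cd14, 0.093 for Itgam, 0.049 for Mertk and 0.16 for Msr1, and for Cd68 it was -0.040 after quantile normalization. With each tumor left out it ran from -0.26 to 0.21 for Cd14, -0.38 to 0.0016 for Itgam and -0.35 to 0.092 for Msr1. The cause of these changes was not tested. The exclusion of S46 and S56, the removal of the muscle trend and the correlations with the 2 lists were chosen after seeing the data.

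No paired analysis was possible because the labels number every library once and the genotypes share no number. Group sizes of 11 and 8, 1 shallow library and the muscle content of the tumors limit what can be seen of the members.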
